A study of Mus musculus with 17 samples.

Results

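The genes described here are 51 cell cycle genes, 25 listed for DNA replication and 26 for mitosis. The replication set includes regulators such as E2f1 and the cyclin E genes. The 51 genes were taken by symbol from a list given for each set. The lists ran from Mcm2 to Cdt1 for DNA replication and from Mki67 to Hmmr for mitosis. These lists were chosen with earlier results of these data known, without a cut on the measured values. All 51 were found among the 35896 Ensembl gene IDs of the count tables, each under 1 ID, and all 51 passed the filter on low counts. Levels are in CPM (counts scaled to equal library totals with TMM correction, not corrected for gene length). The lowest level of any of the 51 genes in any library was 14.5 CPM (Gins1) and the highest was 809 CPM (Top2a).

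RNA sequencing was done on 17 libraries of pancreatic stellate cells, the resident fibroblast precursors of the pancreas, from wild type C57BL/6J mice. Cells of 2 lines, PSC4 and PSC5, were embedded in Matrigel, a basement membrane gel, and treated for 4 days with 1 of 4 media. Control medium had 5 libraries (PSC4 replicates 1, 2 and 3, PSC5 replicates 1 and 2), and the series text calls these cells quiescent. TGF-beta at 20 ng/mL had 4 libraries (PSC4 replicates 2 and 3, PSC5 replicates 1 and 2), called myCAFs, myofibroblast-like cancer-associated fibroblasts, in the series text. Medium conditioned by pancreatic tumour organoids (CM) had 4 libraries. CM with 300 nM neratinib, an inhibitor of ERBB receptor kinases, also had 4. Each of these groups came from PSC4 and PSC5 replicates 1 and 2. No library had neratinib without CM, and neratinib libraries or values named below are those of CM with neratinib. The conditioned media carry the code T6 in replicates 2 and T8 in replicates 1, which the labels do not explain. Replicates of a line are successive passages (23, 24 and 25 for PSC4, 27 and 28 for PSC5), so each p-value measures the spread between passages of 2 lines. Values are listed below in the order PSC4 then PSC5, by replicate number. Libraries of the same line and number share a passage. Groups called overlapping or apart were compared over all their libraries, without this pairing.

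Library totals lay between 22168953 and 29421447 counts. All 10 listed stellate and fibroblast markers had counts in all 17 libraries, with summed levels of 5445 to 6976 CPM in control and 9904 to 20436 CPM with TGF-beta. Of 12 epithelial markers, 6 to 9 had a count in a control library and their sum was 15.8 to 23.6 CPM, against 14.8 to 20.4 CPM with TGF-beta. In the conditioned media the epithelial sum was 20.2 and 42.7 CPM for CM with code T8, 181 and 152 CPM for CM with code T6, 9.74 and 51.9 CPM for CM with neratinib and code T8, and 146 and 325 CPM for CM with neratinib and code T6. Leukocyte marker sums were 14.2 to 17.6 CPM in control, 6.57 to 7.77 with TGF-beta, 26.8 to 53.1 with CM and 35.5 to 67.9 with neratinib, with Adgre1 at 0 in all 17 libraries. Endothelial sums were at most 5.63 CPM and acinar sums at most 12.2 CPM in any library, with Prss1 at 0 throughout. The libraries labelled PSC4 replicate 1 stood nearer to PSC5 than to the other PSC4 libraries. With them left out, 5980 of 14049 genes differed between the lines, against 970 of 13923 with them counted as PSC4. The cell cycle results are therefore also given without these 3 libraries where their removal changed a count by more than 1.5 times. In RNA from whole cultures, a larger share of cycling cells and more RNA of these genes per cycling cell cannot be told apart.

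As background, genes of S phase are switched on late in G1 when cyclin-dependent kinases free the E2F transcription factors from RB family proteins. Genes of G2 and mitosis are held down by the DREAM complex at a promoter element called the CHR (cell cycle genes homology region), then switched on by B-MYB and FOXM1, often together with NF-Y at CCAAT boxes. Stellate cells proliferate little in the resting pancreas and re-enter the cycle when they are activated.

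The promoters of the 2 gene sets were compared for the words these factors are known to recognise. Any link of these words to the RNA values below was not tested. RefSeq promoter windows (GRCm38.p6, 300 bases, 250 before and 50 after the start) were found for 41 of the 51 genes, 20 for replication and 21 for mitosis. The E2F-type word TTTNNCGC, searched on both strands, was in a window of 10 of 20 replication genes (50%) and of 1 of 21 mitosis genes (4.76%), against 5.93% of 27025 genes. The CHR word TTTGAA was in a window of 4 of 20 replication genes (20%) and of 16 of 21 mitosis genes (76.2%), against 20.2% of all genes. The word CCAAT was in 13 of 20 (65%) and 19 of 21 (90.5%), against 41.1% of all genes. Matches of different words shared bases in 1 of the 47 windows of these genes. A match describes letters and does not show a bound site. The 160 bases before the RefSeq start are printed 5′ to 3′ in the direction of the gene for 3 replication genes that hold the E2F word there and 5 mitosis genes named in the results, with the letters of any of the 3 words, on either strand, in capitals. These starts can differ from the GENCODE gene positions given elsewhere. By GENCODE the Cdc6 gene starts at chr11:98907801, so its stretch lies inside the gene. The stretches of Cdk1, Cdc20 and Ube2c cross the GENCODE start. The locations are chr8:75109349-75109508 (plus strand) for Mcm5, chr1:128359706-128359865 (minus) for Mcm6, chr11:98907991-98908150 (plus) for Cdc6, chr10:69352913-69353072 (minus) for Cdk1, chr4:118437344-118437503 (minus) for Cdc20, chr11:99024190-99024349 (minus) for Top2a, chr2:164769769-164769928 (plus) for Ube2c and chr7:122159275-122159434 (plus) for Plk1.
Mcm5: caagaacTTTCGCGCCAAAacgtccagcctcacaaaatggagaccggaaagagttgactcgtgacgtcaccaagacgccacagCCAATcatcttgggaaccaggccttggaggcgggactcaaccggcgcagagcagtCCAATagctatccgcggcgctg
Mcm6: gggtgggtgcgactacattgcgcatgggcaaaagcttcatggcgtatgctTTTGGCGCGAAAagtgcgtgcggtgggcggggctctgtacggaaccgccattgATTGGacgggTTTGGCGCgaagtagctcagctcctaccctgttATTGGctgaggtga
Cdc6: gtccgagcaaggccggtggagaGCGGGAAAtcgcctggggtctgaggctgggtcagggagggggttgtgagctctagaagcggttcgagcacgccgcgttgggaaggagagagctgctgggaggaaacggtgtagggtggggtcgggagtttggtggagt
Cdk1: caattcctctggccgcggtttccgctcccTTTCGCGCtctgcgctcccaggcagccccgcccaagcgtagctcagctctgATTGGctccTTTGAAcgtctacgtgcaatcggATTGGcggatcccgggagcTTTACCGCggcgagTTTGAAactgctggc
Cdc20: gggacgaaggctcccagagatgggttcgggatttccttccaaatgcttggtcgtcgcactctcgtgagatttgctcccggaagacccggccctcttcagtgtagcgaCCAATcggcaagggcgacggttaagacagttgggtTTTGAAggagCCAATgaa
Top2a: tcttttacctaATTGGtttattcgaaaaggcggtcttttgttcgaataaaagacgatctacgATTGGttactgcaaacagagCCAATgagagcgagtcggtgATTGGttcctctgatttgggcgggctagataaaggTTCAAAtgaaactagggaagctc
Ube2c: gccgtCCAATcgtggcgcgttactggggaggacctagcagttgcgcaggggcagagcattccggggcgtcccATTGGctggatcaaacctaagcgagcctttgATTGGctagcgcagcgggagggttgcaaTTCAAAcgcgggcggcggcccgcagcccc
Plk1: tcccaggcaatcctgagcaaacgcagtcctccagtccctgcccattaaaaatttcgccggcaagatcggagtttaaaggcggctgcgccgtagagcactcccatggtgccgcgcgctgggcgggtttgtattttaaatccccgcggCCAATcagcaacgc

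The Cdk1 stretch is the only one of the 8 with both the E2F word and the CHR word, and Cdk1 is the only mitosis gene of the 21 with the E2F word in its window. In Cdc20 the CHR word starts 18 bases before the RefSeq start, and in Plk1 it lies after the RefSeq start, outside the printed stretch.

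With TGF-beta the mitosis genes rose as a set while most replication genes were not called. Of 26 mitosis genes 21 rose and 0 fell (adjusted p under 0.05, edgeR quasi-likelihood test, Benjamini-Hochberg adjustment over 13923 genes), against a background of 19.7% of all genes higher and 20.5% lower (40.2% either way). All 26 had a positive log2 fold change, with a median of 0.31 against -0.02 over all genes tested. Of 25 replication genes 6 rose and 2 fell, with a median of -0.01. In what follows, values in parentheses are log2 fold changes, where shown with their SE and adjusted p from the same test. The 5 mitosis genes not called were Aurkb, Birc5, Cenpf, Kif23 and Nusap1.

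**Figure D1:**
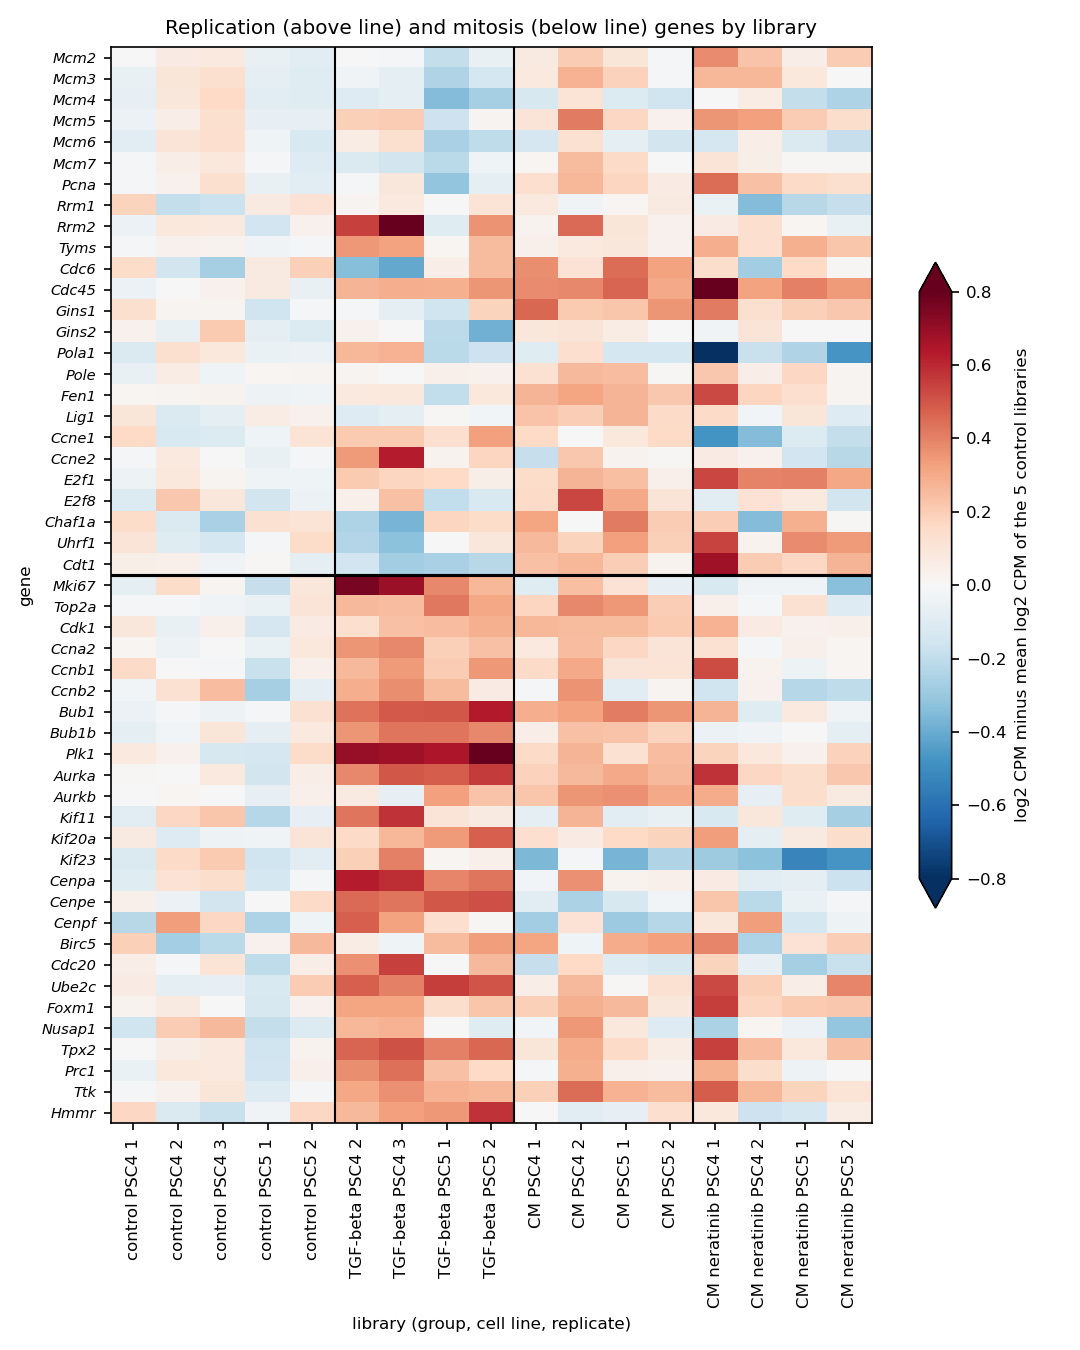
Level of each of the 51 genes (rows) in each of the 17 libraries (columns), as log2 CPM minus the mean log2 CPM of the 5 control libraries, with colours ending at 0.8 in either direction. Below the line the TGF-beta columns are red in nearly every mitosis row, and above it the TGF-beta columns mix red and blue.

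Plk1, the kinase that drives mitotic entry and spindle assembly, changed most (Ensembl ENSMUSG00000030867, protein coding, chr7:122159439-122169873, plus strand, GRCm38). Its level was 62.5, 60.6, 54.3, 53.9 and 65.6 CPM in control and 95.8, 94.6, 92.5 and 107 CPM with TGF-beta. All 4 treated libraries lay above all 5 controls, by a log2 fold change of 0.71 ± 0.070, adjusted p = 2.45e-06, 1.64-fold. Mki67 encodes the Ki-67 protein that coats mitotic chromosomes and is the usual marker of cycling cells. It was at 391, 455, 419, 363 and 439 CPM in control and 696, 664, 537 and 494 CPM with TGF-beta, again without overlap, and the treated PSC4 libraries were higher than the treated PSC5 libraries (0.54 ± 0.10, adjusted p = 5.45e-04).

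The other called mitosis genes rose by smaller steps. Cdk1, the kinase at the centre of mitotic entry, had 168, 152, 163, 144 and 165 CPM in control and 174, 187, 188 and 192 CPM with TGF-beta, with no overlap between the groups (0.23 ± 0.061, adjusted p = 0.0074). Its cyclin Ccnb1 had 128, 115, 113, 101 and 118 CPM in control and 137, 145, 132 and 146 CPM with TGF-beta, also apart (0.30 ± 0.091, adjusted p = 0.016). This call rested in part on TGF-beta PSC5 replicate 2, without which the adjusted p was 0.055. Top2a, the topoisomerase that untangles sister chromatids, was at 599.6, 599.8, 592, 581 and 649.8 CPM in control and 723, 718, 809 and 748 CPM with TGF-beta (0.31 ± 0.066, adjusted p = 0.0019). Cdc20, an activator of the anaphase-promoting complex, was at 93.9, 89.5, 97.6, 78.7 and 94.0 CPM in control and 116, 132, 90.1 and 108 CPM with TGF-beta, and here TGF-beta PSC5 replicate 1 lay among the controls (0.31 ± 0.089, adjusted p = 0.011). Each TGF-beta library was above the control of its own line and number for Cdc20. The Cdc20 call was lost without TGF-beta PSC4 replicate 3 (adjusted p = 0.053).

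Hmmr, a spindle protein, was at 82.6, 67.9, 65.1, 72.2 and 82.6 CPM in control and 88.2, 92.4, 93.6 and 110.2 CPM with TGF-beta, with the groups apart (0.37 ± 0.087, adjusted p = 0.0037). Foxm1, the transcription factor of G2 and mitosis genes, was at 178, 183, 174, 159.8 and 179 CPM in control and 218, 217, 192 and 204 CPM with TGF-beta, also apart (0.26 ± 0.070, adjusted p = 0.0083). The spindle checkpoint kinase gene Bub1 was at 58.1, 59.3, 58.2, 59.2 and 65.1 CPM in control and 81.0, 84.2, 84.7 and 93.1 CPM with TGF-beta (0.51 ± 0.069, adjusted p = 4.06e-05), every treated library above every control. Cenpe, a kinetochore motor, was at 132, 124, 116, 128 and 143 CPM in control and 175, 173, 181 and 183 CPM with TGF-beta, with no overlap (0.46 ± 0.078, adjusted p = 2.78e-04). Further genes that rose included the centromeric histone Cenpa (0.52), the spindle kinase Aurka (0.48), the spindle protein Tpx2 (0.47) and the ubiquitin carrier Ube2c (0.48). The smallest difference was that of Birc5, which encodes survivin of the chromosomal passenger complex, at 80.7, 58.6, 60.8, 72.4 and 84.5 CPM in control and 73.5, 68.9, 84.3 and 89.2 CPM with TGF-beta (0.13 ± 0.12, adjusted p = 0.45). Its groups overlapped widely, as did those of its partner Aurkb, at 69.2, 69.7, 69.2, 66.1 and 71.0 CPM in control and 72.4, 66.1, 86.6 and 80.8 CPM with TGF-beta (0.14 ± 0.077, adjusted p = 0.17). Set against the control of the same line and number, Birc5 was higher in each TGF-beta library. Aurkb was higher in all but PSC4 replicate 3. The count of mitosis genes called was 20 to 23 under every alternative run, each of them higher.

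The 6 replication genes that rose with TGF-beta were Rrm2, Ccne2, Ccne1, Cdc45, Tyms and E2f1. Rrm2, the small subunit of ribonucleotide reductase, was at 79.4, 87.2, 86.8, 73.7 and 84.1 CPM in control and 119.7, 146, 76.6 and 105 CPM with TGF-beta. It was high in 3 of the treated libraries and within the control range in PSC5 replicate 1 (0.45 ± 0.12, adjusted p = 0.0061). Ccne2, a cyclin E gene, was at 51.3, 54.5, 51.8, 49.6 and 51.2 CPM in control and 65.3, 79.9, 52.6 and 58.2 CPM with TGF-beta, the same library lying near the controls (0.32 ± 0.092, adjusted p = 0.012), and the call was lost without TGF-beta PSC4 replicate 3 (adjusted p = 0.064). Ccne1, the other cyclin E gene, was at 26.3, 21.6, 21.8, 22.9 and 25.4 CPM in control and 27.2, 27.2, 25.9 and 29.5 CPM with TGF-beta, with overlapping groups (0.21 ± 0.078, adjusted p = 0.045). For Rrm2, Ccne2 and Ccne1, each TGF-beta library was above the control of its own line and number. Cdc45, a part of the replicative helicase, was at 56.7, 58.6, 60.0, 61.4 and 56.1 CPM in control and 70.5, 71.6, 71.1 and 74.6 CPM with TGF-beta, with the groups apart (0.30 ± 0.094, adjusted p = 0.019). The thymidylate synthase gene Tyms (0.25) and E2f1 (0.15) rose as well. The Ccne1 and E2f1 calls were lost under 10 and 9 of 19 alternatives (highest adjusted p = 0.12 and 0.11). Both were lost without TGF-beta PSC4 replicate 2 or 3 and without control PSC4 replicate 3 or control PSC5 replicate 1 or 2, Ccne1 also without TGF-beta PSC5 replicate 2 or control PSC4 replicate 2, and E2f1 also without TGF-beta PSC5 replicate 1 or control PSC4 replicate 1.

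The 2 replication genes that fell with TGF-beta were Cdt1 and Mcm4. Cdt1 (Ensembl ENSMUSG00000006585, protein coding, chr8:122568015-122573554, plus strand, GRCm38) loads the MCM helicase on origins in G1. It was at 128, 128, 121, 125 and 118 CPM in control and 111, 102, 103 and 106 CPM with TGF-beta, with every treated library below every control (-0.22 ± 0.081, adjusted p = 0.044). The Cdt1 call was lost under 11 of 19 alternatives, among them without any 1 of the 4 TGF-beta libraries and without control PSC4 replicate 1 or 2 or control PSC5 replicate 1 or 2 (highest adjusted p = 0.15). Mcm4, a helicase subunit, was at 343, 383, 401, 337 and 335 CPM in control and 334, 341, 282 and 298 CPM with TGF-beta, with overlap (-0.18 ± 0.060, adjusted p = 0.025). Each TGF-beta library of Mcm4 was below the control of its own line and number. The other MCM genes were not called, with Mcm2 at 381, 399, 402, 366 and 359 CPM in control and 381, 377, 334 and 365 CPM with TGF-beta (-0.05 ± 0.055, adjusted p = 0.46). The 8 replication calls became 4 or 5 when TGF-beta PSC4 replicate 2 or 3, TGF-beta PSC5 replicate 1, control PSC4 replicate 2 or 3 or control PSC5 replicate 1 or 2 was left out, and 4 (all higher) without the filter on low counts. With upper-quartile scaling 4 rose and 3 fell, and with RLE scaling 6 rose and 1 fell.

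**Figure D2:**
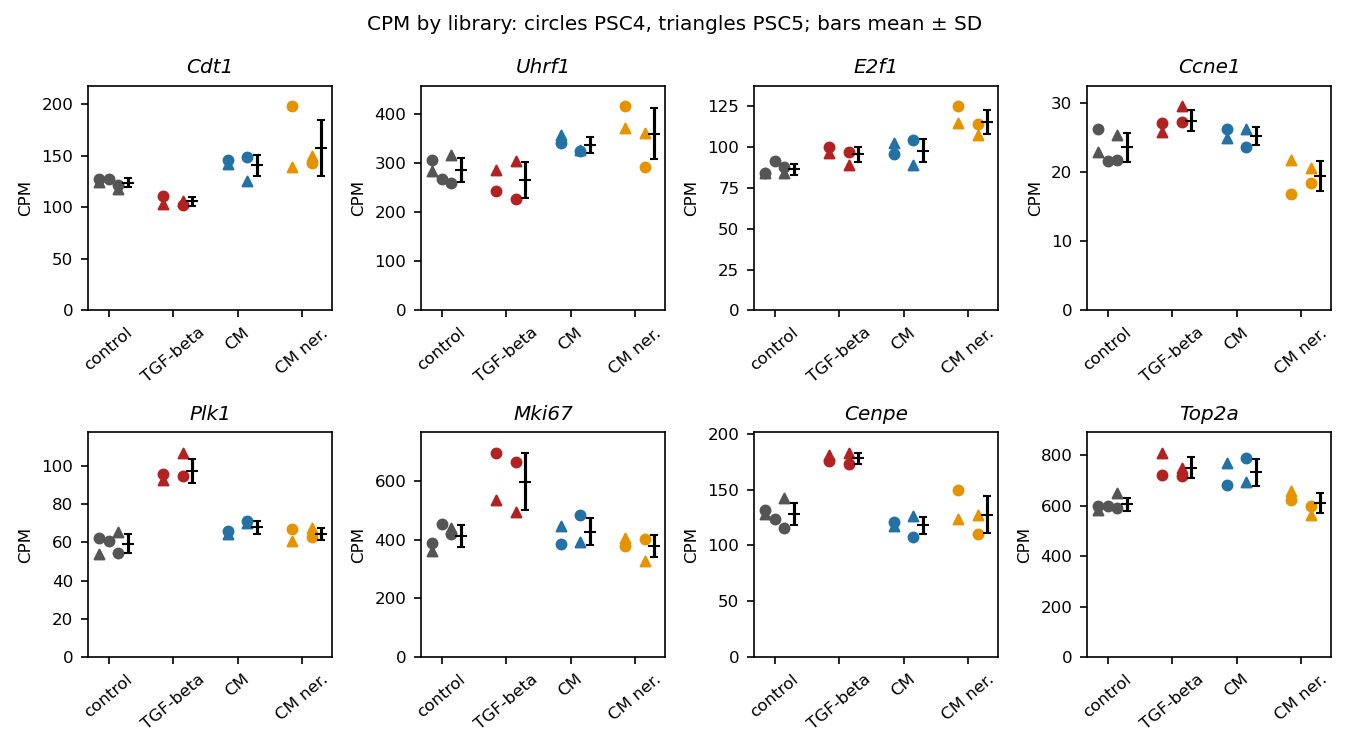
CPM of 4 replication genes (top row) and 4 mitosis genes (bottom row) in every library, with circles for PSC4, triangles for PSC5 and black bars for the group mean ± SD (n = 5 control, n = 4 in the other groups). TGF-beta libraries stand above all others for Plk1, Mki67 and Cenpe and below all others for Cdt1, while Ccne1 has its lowest mean with neratinib (CM ner.).

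With CM, all genes called in either set were higher than in control. Of 25 replication genes 6 rose and 0 fell, and of 26 mitosis genes 6 rose and 0 fell, against a background of 7.05% of all genes higher and 7.14% lower (14.2% either way). The median log2 fold change was 0.17 for the replication genes and 0.14 for the mitosis genes, against 0.00 over all genes. Positive values were found for 22 of 25 replication genes and 21 of 26 mitosis genes. This comparison shares its 5 control libraries with the TGF-beta comparison.

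The replication genes that rose with CM were Cdc45, Gins1, E2f8, Fen1, Lig1 and E2f1. Cdc45 had 76.1, 76.3, 80.8 and 72.2 CPM with CM, above the 5 control values of 56.1 to 61.4 CPM (0.39 ± 0.094, adjusted p = 0.015), a call lost without CM PSC5 replicate 1 (adjusted p = 0.058). Gins1, a subunit of the GINS part of the helicase (0.32), the flap endonuclease Fen1 (0.28) and the DNA ligase Lig1 (0.21), both of lagging strand synthesis, also lay apart from control. E2f1, an activating E2F factor, was at 83.9, 91.5, 87.7, 84.2 and 84.3 CPM in control and 95.5, 104, 102 and 88.9 CPM with CM, and CM PSC5 replicate 2 lay within the control range (0.19 ± 0.054, adjusted p = 0.034), a call lost under 11 of 19 alternatives (highest adjusted p = 0.12), among them without CM PSC4 replicate 2, CM PSC5 replicate 1, control PSC4 replicate 1 or 3, or control PSC5 replicate 1 or 2. Several others had values of like size that did not pass. Pcna, the sliding clamp, was at 353, 367, 390.3, 343 and 336 CPM in control and 392, 429, 403 and 373 CPM with CM (0.17 ± 0.066, adjusted p = 0.091). Uhrf1, which carries DNA methylation through replication, was at 306, 267, 258, 284 and 316 CPM in control and 341, 324, 358 and 326 CPM with CM (0.22 ± 0.094, adjusted p = 0.13), and Cdc6, Cdt1's partner in origin licensing, at 70.0, 57.0, 52.4, 66.5 and 72.2 CPM in control and 81.6, 68.6, 86.1 and 78.9 CPM with CM (0.29 ± 0.11, adjusted p = 0.098). The lowest value was that of Mcm4 (-0.05 ± 0.060, adjusted p = 0.62).

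The mitosis genes that rose with CM were Bub1, Aurkb, Ttk, Top2a, Cdk1 and Bub1b. Bub1 had 73.3, 74.8, 79.5 and 76.4 CPM, above all controls (0.34 ± 0.069, adjusted p = 0.0059). Aurkb had 80.6, 88.2, 89.0 and 85.0 CPM against controls of 66.1 to 71.0 CPM (0.31 ± 0.077, adjusted p = 0.018), a call lost without CM PSC4 replicate 2, CM PSC5 replicate 1, control PSC5 replicate 1 or the T6 libraries (highest adjusted p = 0.084). Top2a had 681, 787, 769 and 692 CPM (0.27 ± 0.066, adjusted p = 0.015) and Cdk1 190.4, 189, 188 and 183 CPM (0.25 ± 0.060, adjusted p = 0.016), each above every control library. Both calls were lost without CM PSC5 replicate 1 or the T6 libraries, that of Top2a also without CM PSC4 replicate 2 and that of Cdk1 without the T8 libraries (highest adjusted p = 0.064 and 0.082). Plk1 and Mki67, the leading genes of the TGF-beta comparison, were at 65.7, 71.5, 64.4 and 70.1 CPM (0.19 ± 0.070, adjusted p = 0.08) and 386, 486, 446 and 393 CPM with CM (0.07 ± 0.10, adjusted p = 0.71) and were not called. Kif23, a motor of the central spindle, had the lowest value (-0.22 ± 0.080, adjusted p = 0.077).

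The CM counts depended on few libraries. Without CM PSC5 replicate 1 they were 0 replication and 2 mitosis genes, without CM PSC4 replicate 2 they were 3 and 3, and without control PSC4 replicate 3, control PSC5 replicate 1 or control PSC5 replicate 2 the replication count was 2. Over all genes the calls fell as well, from 1976 to 801 without CM PSC5 replicate 1 and 1269 without CM PSC4 replicate 2. Without these controls, in the same order, they were 1506, 1204 and 1219. The replication and mitosis counts were 10 and 12 (11 higher, 1 lower) without the libraries labelled PSC4 replicate 1, 10 mitosis genes (9 higher, 1 lower) with the replicate number and line as a block, and with upper-quartile scaling 5 mitosis genes rose and 1 fell. Over all genes these fits called 2543 of 14049, then 3240 and 2090 of 13923. The CM libraries with code T6 had epithelial sums of 152 and 181 CPM, and the CM libraries had leukocyte sums of 26.8 to 53.1 CPM. Of 6 leukocyte markers 3 were tested and 1 was called with CM against control. Their log2 fold changes ran from 0.03 (Cd68) to 1.55 (Cd14), with a median of 0.24. Without all T6 libraries 1 replication and 1 mitosis gene rose, with medians of 0.15 and 0.13, and without all T8 libraries 3 and 5 rose, with medians of 0.15 and 0.19. Over all genes 582 of 14226 rose without T6 and 626 of 14345 without T8. The share of members called without T6 was thus near that of all genes. The part of the epithelial and leukocyte marker RNA in these values was otherwise not tested.

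CM with neratinib raised a set of replication genes over control and left most mitosis genes uncalled. Of 25 replication genes 11 rose and 3 fell, and of 26 mitosis genes 5 rose and 1 fell, against a background of 22.2% of all genes higher and 20.9% lower (43.1% either way). The medians were 0.06 and 0.07, against 0.00 over all genes, and calls ran in both directions in each set. For the mitosis genes the share higher (19.2%) was near the background.

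The 11 replication genes higher with CM and neratinib than in control were E2f1, Cdt1, Cdc45, Uhrf1, Mcm5, Mcm2, Pcna, Gins1, Tyms, Fen1 and Mcm3. Against CM alone, only E2f1 among the 25 replication genes was called higher. E2f1 (Ensembl ENSMUSG00000027490, protein coding, chr2:154559407-154569892, minus strand, GRCm38) was at 125, 114, 114 and 107 CPM with neratinib against controls of 83.9 to 91.5 CPM (0.42 ± 0.054, adjusted p = 5.04e-05). All 4 libraries were above every control and every CM library. Cdt1 was at 198, 143, 139 and 149.7 CPM, highest in PSC4 replicate 1 (0.35 ± 0.080, adjusted p = 0.0029). Cdc45 was at 109, 73.1, 77.5 and 74.2 CPM, with the same library highest (0.51 ± 0.094, adjusted p = 6.83e-04). Uhrf1 was at 415, 291, 372 and 362 CPM, of which PSC4 replicate 2 lay within the control range (0.32 ± 0.094, adjusted p = 0.014), and the call was lost without PSC4 replicate 1 or without all T8 libraries, where the adjusted p reached 0.19. Mcm5 was at 225, 241, 254, 222 and 223 CPM in control and 298, 292, 268 and 256 CPM with neratinib, without overlap (0.27 ± 0.067, adjusted p = 0.0048). Mcm2 was at 496, 446, 396 and 439 CPM (0.23 ± 0.055, adjusted p = 0.0041), with PSC5 replicate 1 within the control range. Pcna was at 486, 419.5, 398 and 391 CPM (0.26 ± 0.066, adjusted p = 0.0061), just above the highest control of 390.3 CPM in its lowest library, and the call was lost without the T8 libraries (adjusted p = 0.066). Gins1, Tyms, Fen1 and Mcm3 rose by 0.17 to 0.25 on the log2 scale.

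The 3 replication genes that fell were Pola1, Ccne1 and Rrm1. Ccne1 (Ensembl ENSMUSG00000002068, protein coding, chr7:38097984-38107534, minus strand, GRCm38) was at 16.9, 18.5, 21.8 and 20.6 CPM with neratinib, with PSC5 replicate 1 inside the control range (-0.29 ± 0.080, adjusted p = 0.0088), and the call was lost without the T6 libraries (adjusted p = 0.073). Pola1, the catalytic subunit of the primase-coupled polymerase alpha, was at 165, 195, 189, 172 and 173 CPM in control and 92.4, 158, 151 and 129 CPM with neratinib, lowest in PSC4 replicate 1 (-0.41 ± 0.14, adjusted p = 0.025). Without PSC4 replicate 1 of the neratinib group, without control PSC4 replicate 2 or without control PSC5 replicate 2 the Pola1 call was lost, as it was without the T6 libraries or with only the 2 groups fitted (highest adjusted p = 0.056). Rrm1, the large subunit of ribonucleotide reductase, was at 358, 278, 281, 333 and 342 CPM in control and 305, 249, 272 and 279 CPM with neratinib, with overlap (-0.21 ± 0.080, adjusted p = 0.047), a call lost under 10 of 19 alternatives. Among mitosis genes Foxm1 had the highest value, at 257, 196, 202 and 203 CPM (0.30 ± 0.070, adjusted p = 0.0031), and Tpx2, Ube2c, Aurka and Ttk rose by 0.27 to 0.30 on the log2 scale. Kif23 fell, from 78.4, 94.7, 98.2, 76.3 and 80.1 CPM in control to 70.0, 67.6, 59.0 and 61.4 CPM with neratinib, with the groups apart (-0.39 ± 0.080, adjusted p = 0.0016).

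Without neratinib PSC4 replicate 1, 7 replication genes rose and 2 fell, against 2556 genes higher and 2396 lower of 14114. Neratinib libraries with code T6 had epithelial sums of 146 and 325 CPM. Without all T6 libraries 10 replication genes rose and 0 fell, with a median of 0.19, and without all T8 libraries 5 rose and 3 fell, with a median of 0.07. Of 14226 genes without T6, 2357 rose and 2106 fell, and of 14345 without T8, 2493 rose and 2383 fell. The share of replication genes that rose without T8 was thus near that of all genes. The mitosis median was -0.03 without the T8 libraries. The part of the epithelial RNA in these values was not tested otherwise.

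Against CM alone, neratinib changed few of the 51 genes. Of 25 replication genes 1 rose (E2f1) and 1 fell (Ccne1), and of 26 mitosis genes 0 rose and 3 fell (Bub1, Top2a and Bub1b), against a background of 10.8% of all genes higher and 9.63% lower (20.5% either way). The medians were -0.05 and -0.09, against 0.00 over all genes. E2f1 was at 95.5, 104, 102 and 88.9 CPM with CM and 125, 114, 114 and 107 CPM with neratinib, with the groups apart (0.23 ± 0.057, adjusted p = 0.01). Ccne1 was at 26.3, 23.6, 24.9 and 26.3 CPM with CM and 16.9, 18.5, 21.8 and 20.6 CPM with neratinib, each treated library below each CM library (-0.38 ± 0.083, adjusted p = 0.0059). In this fit E2f1 and Ccne1 thus moved in opposite directions, a factor and a gene it is known to regulate, and neither call held under every alternative. Bub1 had 73.3, 74.8, 79.5 and 76.4 CPM with CM and 72.3, 56.1, 63.2 and 58.8 CPM with neratinib, without overlap (-0.28 ± 0.073, adjusted p = 0.015), and Top2a 681, 787, 769 and 692 CPM with CM and 621, 598, 657 and 562 CPM with neratinib, also apart (-0.27 ± 0.070, adjusted p = 0.016). Bub1b fell too (-0.21), and Cenpf had the highest mitosis value (0.23 ± 0.11, adjusted p = 0.16).

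These neratinib calls against CM were few and sensitive to the fit. Over all genes 2850 were called, against 602 with only the 2 groups fitted and 187 without the T6 libraries. The Bub1 and Top2a calls were lost without neratinib PSC5 replicate 2, and that of Top2a also without CM PSC4 replicate 2. Those of E2f1 and Ccne1 were lost without the T6 or the T8 libraries and with only the 2 groups. The E2f1 call was also lost without the libraries labelled PSC4 replicate 1 (highest adjusted p = 0.11 for E2f1 and 0.14 for Ccne1). With only the 2 groups fitted 0 replication and 0 mitosis genes were called, and with the replicate number and line as a block 8 (1 higher, 7 lower) and 6 (1 higher, 5 lower). The block fit called 4563 of 13923 genes (2342 higher, 2221 lower). Members called either way were thus near or under that share. Without the libraries labelled PSC4 replicate 1 the counts were 5 and 6, all lower, against 1043 genes higher and 946 lower of 14049. Leaving out neratinib PSC5 replicate 2 gave 0 mitosis genes, leaving out CM PSC4 replicate 1 or neratinib PSC4 replicate 1 gave 5, and leaving out neratinib PSC4 replicate 1 or PSC5 replicate 1 gave 5 and 4 replication genes. Over all genes the calls were 1748 without neratinib PSC5 replicate 2 and 1782 without CM PSC4 replicate 1. Without neratinib PSC4 replicate 1 or PSC5 replicate 1 they were 2018 and 3685. With upper-quartile scaling 1 replication gene rose and 4 fell, and with DESeq2 2 rose and 4 fell, where all-gene calls were 2813 of 13923 and 3520 of 22704. Without the T6 libraries 0 genes of either set were called, with medians of 0.01 and -0.02, and without the T8 libraries 0 and 3 were called, with medians of -0.10 and -0.17.

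**Figure D3:**
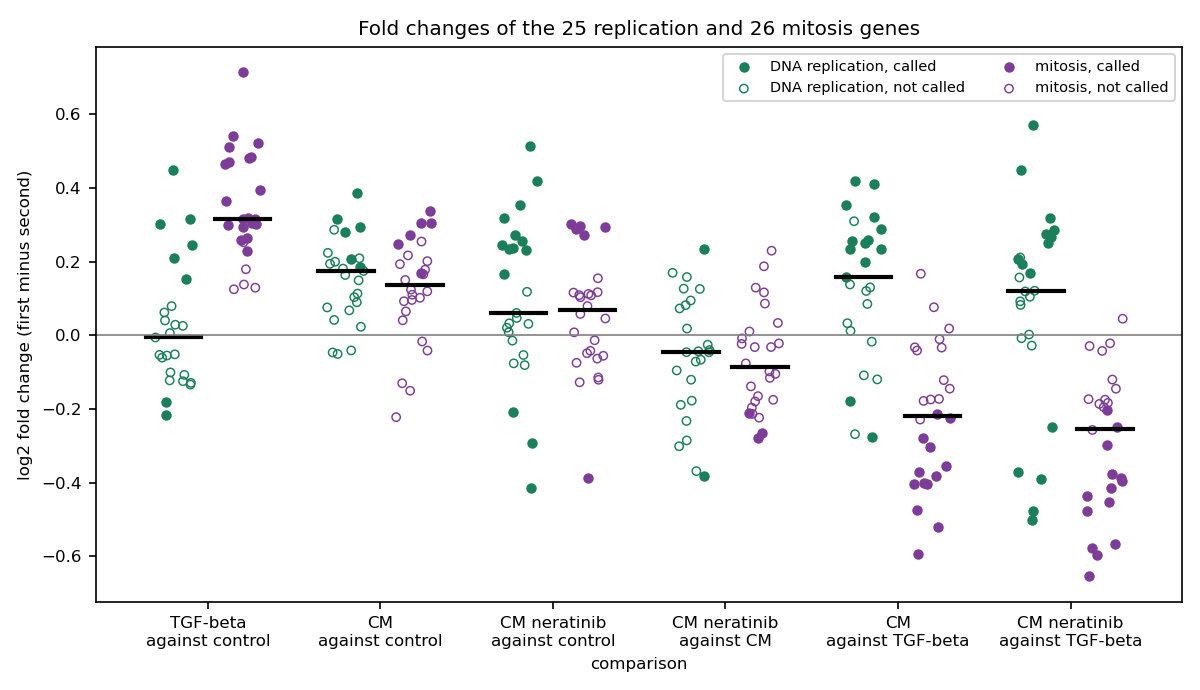
Log2 fold change of each replication gene (green) and each mitosis gene (purple) in the 6 comparisons, filled where the adjusted p was under 0.05, with a black bar at the median of the set. The mitosis medians are 0.31 for TGF-beta against control and -0.22 and -0.25 for CM and CM with neratinib against TGF-beta, where the replication medians are 0.16 and 0.12.

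Set against TGF-beta directly, CM had higher replication and lower mitosis genes. Of 25 replication genes 12 were higher and 2 lower (Ccne2 and Tyms), and of 26 mitosis genes 0 were higher and 13 lower, against a background of 17.8% of all genes higher and 17.5% lower (35.3% either way). The medians were 0.16 and -0.22, against 0.02 over all genes. The replication gene with the largest difference was Cdc6, at 49.9, 47.6, 65.5 and 75.3 CPM with TGF-beta and 81.6, 68.6, 86.1 and 78.9 CPM with CM, with the TGF-beta library of PSC5 replicate 2 inside the CM range (0.42 ± 0.12, adjusted p = 0.011), and the call was lost without the T8 libraries (adjusted p = 0.067). Cdt1 was at 111, 102, 103 and 106 CPM with TGF-beta and 146, 149, 142 and 126 CPM with CM, with no overlap (0.41 ± 0.085, adjusted p = 0.0016). Uhrf1 was at 242, 228, 286 and 304 CPM with TGF-beta and 341, 324, 358 and 326 CPM with CM, also apart (0.35 ± 0.10, adjusted p = 0.012). Pcna was at 354, 380.4, 287 and 339 CPM with TGF-beta and 392, 429, 403 and 373 CPM with CM (0.24 ± 0.069, adjusted p = 0.016), a call lost without CM PSC5 replicate 1, TGF-beta PSC5 replicate 1 or the T6 libraries (highest adjusted p = 0.094). Mcm2 differed by 0.16 ± 0.058, adjusted p = 0.046, a call lost under 11 of 18 alternatives (highest adjusted p = 0.19), among them without CM PSC4 replicate 2, CM PSC5 replicate 1 or 2, TGF-beta PSC4 replicate 2 or 3, or TGF-beta PSC5 replicate 1. Ccne2 was at 45.4, 60.0, 52.7 and 52.0 CPM with CM, against 52.6 to 79.9 CPM with TGF-beta (-0.27 ± 0.10, adjusted p = 0.039), and its call and that of Tyms (-0.18 ± 0.063, adjusted p = 0.039) were lost with the replicate block. In all, these calls were lost under 11 and 12 of 18 alternatives (highest adjusted p = 0.19 and 0.16), both without CM PSC4 replicate 1, CM PSC5 replicate 2, TGF-beta PSC4 replicate 2 or 3, or TGF-beta PSC5 replicate 2, and Tyms also without CM PSC4 replicate 2.

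Among mitosis genes Cenpe differed most, at 175, 173, 181 and 183 CPM with TGF-beta and 121, 108, 118 and 126 CPM with CM, with every CM library lower (-0.59 ± 0.083, adjusted p = 6.53e-05). Plk1 (-0.52 ± 0.074, adjusted p = 7.67e-05) and Mki67 (-0.47 ± 0.10, adjusted p = 0.0026) were also apart. Hmmr was at 74.0, 69.3, 70.5 and 80.9 CPM with CM, below all TGF-beta libraries (-0.38 ± 0.092, adjusted p = 0.0045), and Cdc20 at 79.4, 101, 84.4 and 82.8 CPM, which overlapped (-0.36 ± 0.095, adjusted p = 0.0087) and was not called without the T8 libraries (adjusted p = 0.059). Cdk1, Top2a, Ttk and Foxm1, in contrast, had values near 0: 0.02, -0.03, -0.01 and -0.04 on the log2 scale, none called. Aurkb had the highest value (0.17 ± 0.081, adjusted p = 0.13), with 72.4, 66.1, 86.6 and 80.8 CPM with TGF-beta and 80.6, 88.2, 89.0 and 85.0 CPM with CM. The mitosis count was 11 to 16 under the alternatives, all lower. The replication count was 9 (7 higher, 2 lower) without CM PSC5 replicate 1, 7 and 8 (all higher) without the T6 or the T8 libraries, and 9 (all higher) without the filter on low counts.

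CM with neratinib differed from TGF-beta in the same 2 directions. Of 25 replication genes 10 were higher and 5 lower, and of 26 mitosis genes 0 were higher and 14 lower, against a background of 23.1% of all genes higher and 20.9% lower (44% either way). The medians were 0.12 and -0.25, against 0.03 over all genes. This comparison and the one before share the 4 TGF-beta libraries. Cdt1 differed most among the replication genes (0.57 ± 0.085, adjusted p = 9.34e-05), 1.48-fold, followed by Uhrf1 (0.45 ± 0.10, adjusted p = 0.0022), and Pcna (0.32 ± 0.069, adjusted p = 0.0019) and Mcm2 (0.29 ± 0.058, adjusted p = 0.0011) were higher as well. The 5 that were lower were Ccne1 (-0.50 ± 0.083, adjusted p = 2.24e-04), Pola1 (-0.48 ± 0.14, adjusted p = 0.015), Rrm2 (-0.39 ± 0.12, adjusted p = 0.018), Ccne2 (-0.37 ± 0.10, adjusted p = 0.0064) and Rrm1 (-0.25 ± 0.084, adjusted p = 0.026), a share (20%) near the background. The Rrm2 call was lost without TGF-beta PSC4 replicate 3, without the T6 or the T8 libraries and with only the 2 groups fitted (highest adjusted p = 0.10). That of Pola1 was lost with only the 2 groups (adjusted p = 0.095) and that of Ccne2 without the T6 libraries (adjusted p = 0.067).

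Mki67 differed most among the mitosis genes, at 378, 403, 405 and 326 CPM with neratinib, below every TGF-beta library (-0.65 ± 0.11, adjusted p = 1.71e-04). Plk1 was at 67.1, 62.7, 60.6 and 67.4 CPM (-0.60 ± 0.074, adjusted p = 1.83e-05) and Bub1 at 72.3, 56.1, 63.2 and 58.8 CPM (-0.45 ± 0.073, adjusted p = 1.69e-04), both without overlap. Hmmr was at 78.3, 65.8, 67.0 and 76.9 CPM (-0.41 ± 0.092, adjusted p = 0.0021) and Cdc20 at 102, 86.4, 75.2 and 79.9 CPM, which overlapped (-0.38 ± 0.095, adjusted p = 0.0048) and was not called without the T6 libraries (adjusted p = 0.067). Not called were Cdk1 at 192, 166, 162 and 162 CPM (-0.12 ± 0.064, adjusted p = 0.14), Ccnb1 at 165, 117, 112 and 116 CPM (-0.14 ± 0.10, adjusted p = 0.23) and Birc5 at 92.5, 59.6, 76.7 and 80.9 CPM (-0.02 ± 0.13, adjusted p = 0.91). The highest value was that of Foxm1 (0.05 ± 0.074, adjusted p = 0.65).

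The balance of the 2 sets separated TGF-beta from the other media in every library. The mean log2 CPM over the 26 mitosis genes minus that over the 25 replication genes was 0.04, 0.05, 0.12 and 0.03 in the TGF-beta libraries. It was -0.28, -0.25, -0.24, -0.36 and -0.20 in control, -0.34, -0.26, -0.34 and -0.25 with CM and -0.25, -0.31, -0.37 and -0.30 with neratinib, so that the 4 TGF-beta values were above 0 and the 13 others between -0.37 and -0.20. CPM is not corrected for gene length, so this difference is read between libraries and not as a level of one set against the other. The mean of the mitosis genes alone was 7.05 to 7.14 with TGF-beta and 6.63 to 6.81 in control. The mean of the replication genes was 7.09 to 7.23 with CM and 6.99 to 7.03 in control, and 6.93 to 7.08 with TGF-beta, which spanned the control range.

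**Figure D4:**
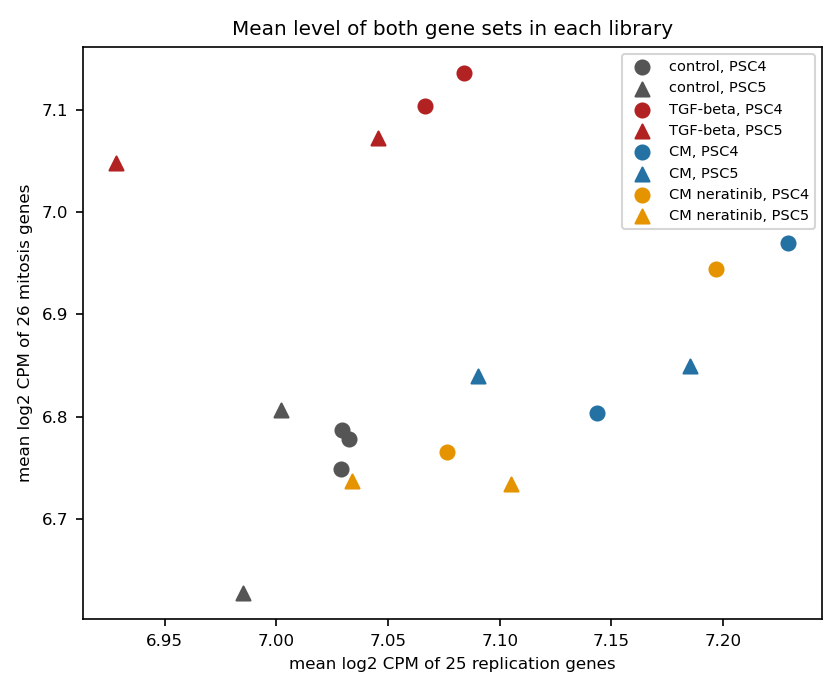
Mean log2 CPM of the 25 replication genes (x axis) against that of the 26 mitosis genes (y axis), 1 point per library, coloured by medium with circles for PSC4 and triangles for PSC5. The 4 TGF-beta points (mitosis mean 7.05 to 7.14) lie above all 13 others, and the 4 CM points (replication mean 7.09 to 7.23) lie to the right of the 5 controls.

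The lines differed in some of these genes, to an extent set by how PSC4 replicate 1 was treated. With the labels as given, PSC5 was lower than PSC4 in 2 replication genes (Mcm4 and Mcm5) and 4 mitosis genes (Kif11, Cenpf, Ccnb2 and Kif23) and higher in 0, against a background of 2.18% of all genes higher and 4.78% lower (6.97% either way). Without the 3 libraries labelled PSC4 replicate 1, 4 replication genes were higher and 11 lower in PSC5, and the same counts held for the mitosis genes. Over all genes that fit called 2953 higher and 3027 lower of 14049, against 304 and 666 of 13923 with the labels as given, so the counts of members grew along with those of all genes. In that fit Birc5 (0.35 ± 0.043) and Cdc6 (0.39 ± 0.054) were higher in PSC5, and Kif11 (-0.35 ± 0.044) and Mcm4 (-0.24 ± 0.032) lower, as log2 fold changes with SE. The left-out libraries, which that fit did not use, can be set beside it. Kif11, a spindle motor, was at 181, 216, 224, 164 and 184 CPM in control, and the library labelled PSC4 replicate 1 lay among the PSC5 values. With CM it was at 183, 233, 181 and 185 CPM and with neratinib at 177, 205, 179.8 and 159.9 CPM, with the libraries labelled PSC4 replicate 1 again within the PSC5 range. For Birc5 they lay at 80.7 CPM in control, 87.7 CPM with CM and 92.5 CPM with neratinib, against 58.6 to 69.0 CPM in PSC4 replicates 2 and 3 of those media. Passage and line cannot be told apart, since PSC5 was used only at the later passages.

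**Figure D5:**
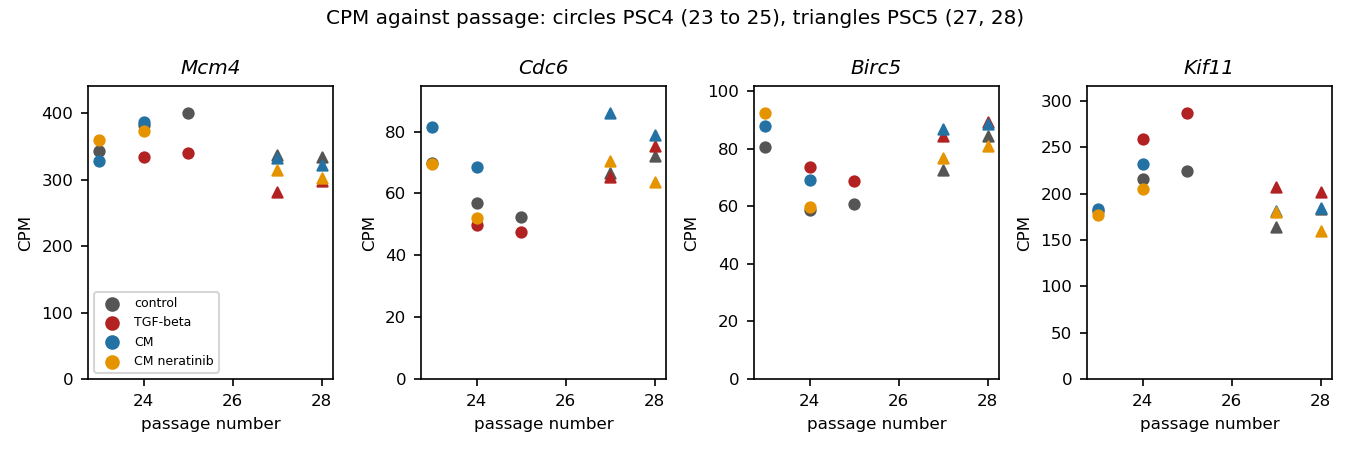
CPM of the 2 replication and 2 mitosis genes that differed most clearly between the lines once the libraries labelled PSC4 replicate 1 were left out (Mcm4, Cdc6, Birc5, Kif11), against passage number, with colours for medium, circles for PSC4 and triangles for PSC5. At passage 23, the libraries labelled PSC4 replicate 1 lie near the PSC5 levels for Kif11 and Birc5 and away from PSC4 at passages 24 and 25.

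The media effects were not found to differ between the lines. In the tests of a line difference in the effect of TGF-beta, of CM and of neratinib within CM, 0 of 51 genes were called by edgeR in each, with a background of 0% of 13923 genes, and 0 of 51 had an unadjusted p under 0.05. Over all 13923 genes, 601, 43 and 237 had such a p, so these tests found few differences in any gene. They kept PSC4 replicate 1 as PSC4 and cannot show that the lines responded alike. Without those libraries 1107 of 14049 genes had such a p in the TGF-beta term. No other tool was run on these terms. The median SE of these differences was 0.15 to 0.17 on the log2 scale, as large as the median effect of CM on these genes. In the TGF-beta effect the replication genes ran from -0.45 for Rrm2 to 0.32 for Cdc6. Between the media codes T6 and T8, 0 of 51 genes were called by edgeR (background 0%), and 1 replication gene, Chaf1a, had an unadjusted p under 0.05. All but 5 of the 51 values were lower with T6, with medians of -0.10 for replication and -0.07 for mitosis genes.

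Other genes of the same processes, listed without those described above, were counted in the same fits. Of 67 other mitosis genes, 25 rose and 3 fell with TGF-beta, with a median log2 fold change of 0.19 (37.3% and 4.48%, against 19.7% and 20.5% of all genes). The largest changes were those of Psrc1, a microtubule regulator, which averaged 48.9 CPM in the 5 control libraries with an SD of 19.6, and 14.2 CPM with an SD of 2.4 in the 4 treated ones (-1.82 ± 0.39, adjusted p = 0.0018), and of Cit, the cytokinesis kinase citron (0.54 ± 0.11, adjusted p = 9.73e-04). Of 57 other replication genes 4 rose (7.02%) and 13 fell (22.8%, near the background), with a median of -0.06, led by Wdhd1, a replisome adaptor (-0.48 ± 0.053, adjusted p = 7.62e-06), and Dbf4, the activator of the CDC7 kinase, which rose (0.48 ± 0.068, adjusted p = 5.94e-05). Of 23 genes of G1 entry and its brakes 3 rose (13.0%) and 1 fell (4.35%), both shares under the background. Cdkn2b, the CDK4/6 inhibitor p15, rose (0.67 ± 0.13, adjusted p = 8.92e-04) and Cdk6 fell (-0.76 ± 0.28, adjusted p = 0.04).

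With CM, 13 other mitosis genes rose and 1 fell, 11 other replication genes rose and 0 fell, and 3 entry genes rose and 1 fell. The shares that rose were 19.4%, 19.3% and 13.0%, against 7.05% of all genes. The entry genes that rose included Mybl2, which encodes B-MYB (0.36 ± 0.078, adjusted p = 0.0087), and Lin54, a subunit shared by DREAM and the B-MYB complex (0.35 ± 0.080, adjusted p = 0.011). Cdca5, which encodes the cohesin protector sororin, rose (0.41 ± 0.090, adjusted p = 0.0085). The replication factor gene Mcm10 (0.43 ± 0.13, adjusted p = 0.04) and E2f2 (0.38 ± 0.10, adjusted p = 0.022) rose as well. Psrc1 was lower with CM too (-1.44 ± 0.38, adjusted p = 0.023). With neratinib against control, 11 other mitosis genes rose and 9 fell, 11 other replication genes rose and 6 fell, and 5 entry genes rose and 5 fell. The shares were 16.4% and 13.4%, 19.3% and 10.5%, and 21.7% and 21.7%, near or under the 22.2% higher and 20.9% lower of all genes. Orc1, of the origin recognition complex, rose (0.71 ± 0.14, adjusted p = 0.001), while the cohesion factor Dscc1 (-0.71 ± 0.13, adjusted p = 6.36e-04) and the CDK inhibitor gene Cdkn1c fell, the latter from 2.23 to 0.49 CPM (-2.19 ± 0.40, adjusted p = 6.18e-04). Against CM, neratinib lowered 11 and raised 1 of the other mitosis genes, among them the condensin subunit Smc4 (-0.50 ± 0.070, adjusted p = 4.55e-04) and the spindle motor Kif15 (-0.50 ± 0.084, adjusted p = 0.0014), and lowered 10 and raised 4 of the other replication genes, among them Dscc1 (-0.68 ± 0.13, adjusted p = 0.0036). The shares lower were 16.4% and 17.5% and those higher 1.49% and 7.02%, against 9.63% lower and 10.8% higher over all genes, and the fall of the all-gene count under other fits, given above, applies here too.

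In the direct comparison of CM with TGF-beta, 23 other replication genes were higher (40.4%) and 2 lower (3.51%), with a median of 0.14, against 17.8% and 17.5% of all genes. Among those higher was the repair gene Brca1 (0.56 ± 0.13, adjusted p = 0.0042). Of the other mitosis genes 2 were higher (2.99%) and 14 lower (20.9%), with Pttg1, the separase inhibitor securin, higher (0.49 ± 0.15, adjusted p = 0.023) and Cit lower (-0.47 ± 0.11, adjusted p = 0.0047). With neratinib against TGF-beta, 17 other replication genes were higher (29.8%) and 4 lower (7.02%), and 1 other mitosis gene was higher (1.49%) and 23 lower (34.3%), against 23.1% and 20.9% of all genes. Orc1 was among the former (0.78 ± 0.15, adjusted p = 5.75e-04), and Mxd3 (-0.50 ± 0.16, adjusted p = 0.023) and Smc4 (-0.50 ± 0.070, adjusted p = 5.77e-05) led the latter. Cdkn2b was lower than with TGF-beta in both conditioned media (-0.98 ± 0.14, adjusted p = 7.79e-05 with CM and -1.21 ± 0.14, adjusted p = 1.00e-05 with neratinib).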

How the data were processed

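RNA from 17 libraries of mouse pancreatic stellate cells was made into mRNA libraries after TRIzol and column extraction, per the labels. The authors quantified reads with Salmon 1.4.0 on GRCm38/mm10, per the submitters' processing notes, which also name DESeq 2. The authors deposited expected counts from that step (estimates per Ensembl gene, unscaled; the unit was read from the named tool and the values), and 74.8% of the values above 0 were not whole. The transcript annotation and strand setting were not given in the sources used here.

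Counts were rounded to whole numbers, and the largest resulting shift of a library total was 307.9. Positions came from GENCODE M21 by gene ID and promoter windows from RefSeq by symbol. Groups, lines and passages came from the labels. edgeR 4.0.16 under R 4.3.3 was fitted to all 17 libraries with terms for group and line, TMM factors and filterByExpr by group (minimum count 10, minimum total 15), leaving 13923 genes, and the quasi-likelihood test was adjusted by Benjamini-Hochberg, with calls at 0.05. CPM used TMM-corrected totals. The fit of TGF-beta against control was also run on simulated counts. These had no line effect and no shared passages, so that run does not test the fit on those features.

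Libraries of the same line and number deviated together from their group means (22 pairs, correlations 0.12 to 0.63, median 0.30). Over 32 pairs of the same line and other numbers the correlations were -0.54 to 0.61, with a median of -0.076. The libraries labelled PSC4 replicate 1 were among those pairs. The labels give libraries of the same line and number a shared passage, so the numbers pair the libraries by passage. The main fit, which gave the p-values above, had no term for this pairing. A fit with that replicate block was an alternative, as were RLE and upper-quartile factors, no filter, DESeq2 1.42.0, only the 2 groups compared, other treatment of PSC4 replicate 1, and each library left out. Leaving out the T6 or the T8 libraries was added after the data were seen.

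The members and lists were chosen with earlier results of these data known. Values in every library were given for 20 fixed genes, and per comparison and gene set the largest and smallest fold changes and up to 3 calls against the median of the set were named. Of the other lists, counts and the 2 called genes with the largest change were given, except where an item is not reported here. A few further members were named after their values were seen.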

Additional observations from a re-analysis of the deposited data

Results flagged for a closer look

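In 17 of 216 groups of values examined, 1 library stood far from the rest of its group (Dixon's test at 95%), and chance flags about 1 in 20 groups. CM PSC4 replicate 2 was the high library for Mcm4 (387 CPM), Rrm2 (112 CPM), Pola1 (196 CPM), Kif11 (233 CPM), Cenpa (109 CPM), Cenpf (130.4 CPM) and Prc1 (182 CPM), and the low one for Birc5 (69.0 CPM, against 86.7 to 88.7 CPM in the other CM libraries). It is the only CM library that is PSC4 and not labelled replicate 1. CM with neratinib PSC4 replicate 1 was high for Cdc45 (109 CPM), Cdk1 (192 CPM), Ccnb1 (165 CPM, against 112 to 117 CPM), Aurka (73.2 CPM) and Foxm1 (257 CPM), and for the mean log2 CPM of the mitosis genes (6.94, against 6.73 to 6.77). In control PSC5 replicate 2, Top2a (649.8 CPM) and Bub1 (65.1 CPM) were high. In TGF-beta PSC5 replicate 1, Fen1 was low (84.6 CPM, against 102 to 103 CPM).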

How the results depend on the processing

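None of the 63 calls of named genes changed sign under any alternative run. Medians of a set near 0 did: for TGF-beta against control the replication median of -0.01 was 0.00 to 0.02 under 7 alternatives (highest without TGF-beta PSC5 replicate 1), for neratinib against CM it was 0.01 without T6, for neratinib against control it was -0.00030 with upper-quartile factors, and there the mitosis median was -0.03 without T8. Of those 63 calls, 1021 values under the alternatives stayed on the same side of the threshold and 145 kept the direction but passed it no longer. Of mitosis genes higher with TGF-beta the count was 20 to 22 with 1 library left out. Counts of called genes that moved by more than 1.5 times are given as replication or mitosis genes. For CM against control, replication genes numbered 10 with PSC4 replicate 1 counted with PSC5 and 10 with those libraries removed, 1 without T6, 3 without T8, 2 without the low-count filter and 2 with upper-quartile factors, and mitosis genes 10 with DESeq2, 1 without T6, 12 with those libraries removed and 10 with the replicate block. For CM against TGF-beta, replication genes numbered 7 without T6, 8 without T8 and 9 without the filter. For neratinib against CM, replication genes numbered 6 with DESeq2, 9 with PSC4 replicate 1 counted with PSC5, 0 without T6, 0 without T8, 5 with those libraries removed, 0 with only the 2 groups, 8 with the replicate block and 5 with upper-quartile factors, and mitosis genes 6, 0 without T6, 6, 0 and 6 under the matching settings. Replication genes numbered 8 without T8 for neratinib against control, 9 with only the 2 groups for neratinib against TGF-beta, and 4 without the filter for TGF-beta against control. For PSC5 against PSC4, replication genes numbered 13 with PSC4 replicate 1 counted with PSC5 and 15 with it removed, and mitosis genes 12 and 15. Counts over all genes moved under these settings too, for example from 2850 to 4563 for neratinib against CM with the replicate block. The cause of these changes was not tested.

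With 1 library left out, replication and mitosis counts were 4 to 6 and 20 to 22 for TGF-beta against control, 0 to 5 and 2 to 6 for CM against control, 9 to 13 and 5 to 6 for neratinib against control, 2 to 5 and 0 to 5 for neratinib against CM, 9 to 11 and 11 to 14 for CM against TGF-beta, and 10 to 14 and 13 to 20 for neratinib against TGF-beta. The replicate block moved no other count by more than 1.5 times. All 51 genes had at least 338 counts in each library. The parts of counting error and of spread between libraries in the precision were not separated.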
